A study of Homo sapiens with 16 samples.

Results

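The comparison described here is the main effect of TAK-981 in MM1R cells, the glucocorticoid-resistant member of a pair of human multiple myeloma cell lines. Its members are the 8 MM1R libraries of the 16 in the series, and they were chosen by cell line and by treatment alone: 4 libraries came from cells given TAK-981 and 4 from cells without it. The 4 groups of 2 libraries were vehicle, dexamethasone (Dex) at 1 μM, TAK-981 at 0.1 μM, and the combination of both at those doses, each for 48 h. The remaining 8 libraries repeat these treatments in MM1S, the glucocorticoid-sensitive sister line. Total RNA was depleted of ribosomal RNA and sequenced, so that transcripts without a poly(A) tail, such as replication-dependent histone mRNAs, were also counted. MM1R is 1 established line, and the labels do not say whether the 2 libraries of a group came from separate cultures. The p-values below therefore measure the spread between these libraries only, which may be technical.

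SUMO is a small protein that cells attach to lysines of other proteins, much as they attach ubiquitin. A single E1 enzyme, the heterodimer of SAE1 and UBA2, activates SUMO, an E2 enzyme transfers it, E3 ligases such as the PIAS proteins help choose targets, and SENP proteases remove it. Many SUMO targets are transcription factors and chromatin proteins, SUMO at chromatin is known for keeping genes repressed, and loss of SUMO conjugation is known to release type I interferon signalling in several cell types. TAK-981 is a small molecule that forms an adduct with SUMO in the E1 enzyme and so blocks the whole cascade.

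The 8 libraries held 18987739 to 24796539 counts over 23354 annotated genes, of which 13788 had enough counts to be tested. A principal component analysis of log2 counts per 1000000 counts (CPM) put 80.0% of the variance on a first component that separated the 4 libraries with TAK-981 (35.6 to 38.5) from the 4 without (−39.3 to −32.8). The second component held 5.0% and set 1 library apart: Dex replicate 1 lay at −22.3, and the other 7 between −2.8 and 11.3. Its rank correlation with the other 3 libraries without TAK-981 was 0.9951 to 0.9963 over 9610 genes, while those 3 correlated at 0.9984 to 0.9986 with each other. Counts of called genes over all genes are therefore given with and without it. Leaving it out moved the number of called genes of the 32 gene lists described below by at most 2 among the higher and 7 among the lower (cytosolic ribosomal proteins, from 57 to 64) and the median by at most 0.05, and a list is given without it where a count moved by more than 1.5 times. Plasma cell markers were present in all 8 libraries, their summed level being 6230 to 6540 CPM without and 5970 to 6140 CPM with TAK-981. Markers of other cell types were near the floor: the 8 T and NK cell markers summed to at most 10.2 CPM with CD3D and NKG7 at 0, the 7 myeloid markers to at most 14.6 CPM (6.1 to 7.76 without and 12.5 to 14.6 with TAK-981, mostly S100A9, with S100A8 at 0), the 5 erythroid markers to at most 12.7 CPM with HBA2 at 0, the 8 stromal and epithelial markers to at most 7.83 CPM, and the 5 mature B cell markers to at most 0.632 CPM. The erythroid sum was uneven, at 2.6 to 12.7 CPM without and 2.64 to 3.61 CPM with TAK-981, and HBB reached 285 counts in 1 library.

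TAK-981 changed most of the transcriptome of MM1R, and its largest fitted fold changes were increases, many of them in genes with few counts without the drug. In a model with a TAK-981 term and a Dex term, 9773 of 13788 genes passed an adjusted p under 0.05 (70.9%; edgeR quasi-likelihood F test, Benjamini-Hochberg), 4772 of them higher (34.6%) and 5001 lower (36.3%). Most of these changes were small: the median absolute log2 fold change of the called genes was 0.41, and the smallest one called was 0.0599. At least 2-fold changes were found in 926 genes that rose (6.72%) and 298 that fell (2.16%). Toward larger sizes the balance shifted further, with 212 genes higher and 9 lower by at least 4-fold, and 59 higher and 0 lower by at least 8-fold. All 4 libraries with TAK-981 lay above all 4 without for 4210 genes (30.5%), and below them for 4648 (33.7%). Without Dex replicate 1 the count was 10157, of which 9489 were among the 9773 (97.1%), with 0 changes of sign. CPM values are shares of each library's RNA, so a change in total RNA per cell is not visible in them. The median log2 fold change of all genes tested was 0.00 with quartiles of −0.28 and 0.32.

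The SUMO pathway itself was split, with both E1 subunit genes lower. Of 27 pathway genes, 10 rose (37.0%, against 34.6% of all genes) and 9 fell (33.3%, against 36.3%), and the median log2 fold change was 0.06 (12, 10 and 0.06 without Dex replicate 1). These shares are close to those of all genes. SAE1 was at 141 and 148 CPM with vehicle, 137 and 149 with Dex, 74.9 and 77.9 with TAK-981, and 77.9 and 80.4 with the combination. All libraries with TAK-981 lay below all without, a fall of 0.88 ± 0.0374 (log2 fold change ± SE; adjusted p = 3.23e-14). UBA2, the catalytic partner of SAE1, fell by 0.50, and the protease gene SENP1 fell by 0.34. On the other side SUMO3 (0.50), the ligase genes PIAS2 (0.48) and PIAS1 (0.25) and the protease gene SENP7 (0.59) rose.

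Interferon-stimulated genes formed the group with the largest increases. Of the 58 tested genes of the interferon list, 57 rose and 0 fell, 44 of them by at least 2-fold (75.9%, against 6.72% of all genes), and the median log2 fold change was 1.89, against 0.00 over all genes. Without Dex replicate 1 the numbers were 57, 0 and 1.85. GBP2 (0.56) did not pass the test. MX1, a GTPase that traps viral ribonucleoproteins, was at 14.2 and 13.8 CPM with vehicle, 15.6 and 14.9 with Dex, 494 and 437 with TAK-981, and 474 and 492 with the combination. It was the gene with the smallest p of all those tested, 32.4-fold higher with TAK-981 (log2 5.02 ± 0.0464, adjusted p = 1.81e-24). XAF1, a pro-apoptotic partner of XIAP, was at 1.42 and 1.61 CPM with vehicle and at 118 to 139 CPM in the 4 libraries with TAK-981, and Dex replicate 1 was the highest of the 4 without the drug. IFI44 went from 3.54 to 4.18 CPM without to 52.7 to 63 CPM with TAK-981, and PARP9, which acts with DTX3L in interferon signalling, from 4.18 to 4.52 CPM to 66 to 79.9 CPM. The groups were far apart for each of these 4 genes, and in none of them did Dex shift the level by as much as 2-fold. The factors that carry the signal were higher too: STAT2 by 0.98, IRF7 by 1.89 and IRF1 by 0.75 on the log2 scale. So were the cytoplasmic sensors of viral RNA, DDX58 (RIG-I) by 2.21, IFIH1 (MDA5) by 1.37 and DHX58 by 2.44, and the ubiquitin-like modifier gene ISG15 by 4.56 with its protease gene USP18 by 3.54. At the lower end stood CXCL10 (0.24) and BST2 (0.32). SLFN5, an interferon-regulated gene outside the list, was at 19.7 to 22.2 CPM without and 101 to 115 CPM with TAK-981.

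The promoters of several of these genes hold a match to the interferon-stimulated response element, here searched on either strand as GAAA, any 2 bases and GAAA again, between 250 bases before and 50 bases after the RefSeq start. The following stretches of the GRCh38.p14 reference (RefSeq) are shown because their genes were among the most increased or the most abundant of the group; capitals mark the match, and each is written 5′ to 3′ on the strand of its gene.
MX1, chr21:41420559-41420588, plus strand: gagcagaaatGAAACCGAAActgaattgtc
IFI44, chr1:78649761-78649790, plus strand: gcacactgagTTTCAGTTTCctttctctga
IFI44L, chr1:78620365-78620394, plus strand: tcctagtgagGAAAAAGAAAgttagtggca
B2M, chr15:44711369-44711398, plus strand: ctaagaaaagGAAACTGAAAacgggaaagt
Of the 58 interferon genes tested, 45 had a promoter in the table, 77.6%, which is under the 80% needed for a share over the list, so none is given; 3.65% of all 27305 RefSeq promoters held the motif. The B2M window also holds an overlapping match, GAAAAGGAAA, that is only partly in capitals. A match is a description of the letters and not evidence of binding.

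Antigen presentation genes rose with them. Of 15 genes of MHC class I presentation 13 rose (86.7%, against 34.6% of all genes) and 0 fell (against 36.3%), with a median of 0.92 (13, 0 and 0.87 without Dex replicate 1). HLA-B, a classical class I heavy chain, was at 443 and 447 CPM with vehicle, 418 and 443 with Dex, 1240 and 1280 with TAK-981, and 1300 and 1290 with the combination. B2M, the light chain common to all class I molecules, was at 1340 to 1450 CPM without and 2970 to 3140 CPM with TAK-981, and the non-classical HLA-F was 3.9-fold higher. Class I genes are near-identical in part, and reads shared between them could be split or lost in counting. The peptide transporter genes TAP1 (0.97) and TAP2 (0.47) and NLRC5 (1.23), the class I transactivator, rose as well. In MHC class II, 10 of 14 genes rose (71.4%) and 1 fell (7.14%), with a median of 0.46 (10, 1 and 0.45 without Dex replicate 1): CD74, the invariant chain, rose by 0.47, HLA-DRA by 0.45 and HLA-DOB by 1.20, while RFXAP, part of the complex that binds class II promoters, fell by 0.44 and CIITA, the class II transactivator, was at 0.05 and not called. Among 18 ligands for NK and T cell receptors, 11 rose (61.1%, against 34.6% of all genes) and 5 fell (27.8%, against 36.3%). The costimulatory ligand gene CD86 (0.92), HLA-E (1.00), the checkpoint ligand genes CD274 (0.97) and PDCD1LG2 (1.17) and the 4-1BB ligand gene TNFSF9 (1.10) rose, whereas CD58 fell by 0.63, PVR fell by 0.37 and CD48 fell by 0.18.

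The listed genes of DNA replication were lower without exception. This list and the others were written with earlier results of these data known, so their counts are descriptions. All 51 listed genes of replication and S phase were tested and all 51 fell, against 36.3% of all genes, 25 of them by at least 2-fold (49.0%, against 2.16%), with a median log2 fold change of −1.0; without Dex replicate 1 the count was again 51 and the median −1.01. MCM6, a subunit of the replicative helicase, was at 259 and 265 CPM with vehicle, 242 and 270 with Dex, 100 and 99.1 with TAK-981, and 102 and 104 with the combination. It fell 2.56-fold (log2 −1.35 ± 0.0369, adjusted p = 3.7e-17), and MCM4, another helicase subunit, fell by 1.39. CDC6, the loader of that helicase, was at 100 to 107 CPM without and 44.6 to 45.4 CPM with TAK-981. RRM2, which makes deoxyribonucleotides, was at 1000 to 1080 CPM without and 468 to 500 CPM with TAK-981, and E2F1, the transcription factor that drives many of these genes, at 87.8 to 96 CPM without and 40.3 to 45.4 CPM with TAK-981. The groups did not overlap for any of these genes. UHRF1 (−1.45), GINS2 (−1.21), PCNA (−1.19) and FEN1 (−1.19) were at the strong end of the list, and POLE2 (−0.50) and E2F7 (−0.55) at the weak end. MCM7, whose intron hosts the miR-25 cluster, fell by 0.90.

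The E2F motif was searched as TTTGGCGC, TTTCCCGC, TTTGCCGC and TTTCGCGC on either strand of the same promoter windows. It was found in 22 of the 44 replication genes with a promoter, against 3.33% of all 27305 promoters and 7.18% of the 4108 promoters of genes called lower. Of the 10805 promoters that could be matched to a tested gene, 5.51% held it. The list was assembled from genes known to depend on E2F, so this share describes the list and is not independent of it. The windows of 4 genes with values above or below are shown, with the match in capitals.
MCM6, chr2:135876515-135876544, minus strand: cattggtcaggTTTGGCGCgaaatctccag
CDC6, chr17:40287875-40287904, plus strand: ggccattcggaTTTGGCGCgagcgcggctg
E2F1, chr20:33686387-33686416, minus strand: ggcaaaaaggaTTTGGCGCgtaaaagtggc
DTL, chr1:212035729-212035758, plus strand: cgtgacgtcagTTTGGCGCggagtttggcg
The 8 capital letters are the same in the 4 windows because matches of this form were the ones shown, and the flanks differ. The MCM6 window also holds an overlapping match, GCGCGAAA, that is only partly in capitals. The E2F1 promoter also holds GCGGCAAA. Other promoters held other forms of the motif, such as TTTCGCGC in MCM7 and EXO1 and TTTCCCGC in MSH6. The MCM6 window has an upstream counterpart, with the first base of its match 152 bases before the start.

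Mitotic genes fell less far but as uniformly. All 50 genes of mitosis and G2/M were lower, against 36.3% of all genes, with a median of −0.76. Only 1 of them passed 2-fold (2.0%, against 2.16% of all genes). The counts without Dex replicate 1 were the same, with a median of −0.77. TOP2A, the topoisomerase of chromosome segregation, was at 732 to 768 CPM without and 409 to 429 CPM with TAK-981, and MKI67, the proliferation marker Ki-67, at 1830 to 1940 CPM without and 1080 to 1110 CPM with TAK-981. BUB1 of the spindle checkpoint fell by 0.91 and the spindle motor gene KIF11 by 0.85. ASPM (−0.14) and CENPA (−0.35) were the least changed. The cell cycle homology region letters TTTGAA were in 31 of the 44 mitotic promoters (70.5%), against 15.4% of all promoters, 10.9% of those of genes called lower, 10.3% of those matched to a tested gene and 1 of the 44 replication promoters (2.27%). The letters CCAAT were in 33 of the 44 mitotic promoters, against 35.7% of all and 37.2% of those matched to a tested gene. The mitotic list was written from general knowledge of such genes, so both shares describe the list and are not independent of it. Of 40 DNA repair and checkpoint genes 36 fell (90.0%, against 36.3% of all genes) and 2 rose (5.0%, against 34.6%), with a median of −0.61. UNG, which removes uracil from DNA, was at 84.6 to 87.5 CPM without and 33 to 35.1 CPM with TAK-981, EXO1 fell by 1.20, the Fanconi anaemia gene FANCI fell by 0.97 and the mismatch repair gene MSH6 fell by 0.98. LIG4 (0.29) and the kinase gene ATM (0.17) were the 2 that passed the test as higher. The groups overlapped for ATM, with Dex replicate 1 at 264 CPM, the other libraries without TAK-981 at 210 to 230 CPM and those with it at 252 to 266 CPM. Its call held without Dex (0.26) but not with Dex (0.07, adjusted p = 0.378), and it was lost without either TAK-981 replicate and without the filter on low counts (largest adjusted p = 0.0742). Clustered histone genes, which are transcribed in S phase, went the same way, with 53 of 59 lower (89.8%) and 2 higher (3.39%). Their median was −0.78, and HIST1H1B fell by 1.34. Histone genes are near-copies of each other, so single members are uncertain.

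G1 regulators moved in both directions. Of 16 cyclins, CDK inhibitors and pocket proteins, 9 rose (56.2%, against 34.6% of all genes) and 5 fell (31.2%, against 36.3%). The kinase genes CDK2 and CDK4 fell by 0.98 and 0.60, the cyclin genes CCND3 and CCND2 by 0.84 and 0.29, and the pocket protein gene RBL1 by 0.61. CDKN1B (p27) rose by 0.47, from 216 to 230 CPM without to 301 to 326 CPM with TAK-981, and CDKN2D (0.78), CDKN1C (1.36) and CCNG2 (0.53) also rose. CCND1 was low at 4.11 CPM without TAK-981 and its difference of 0.11 did not pass the test (adjusted p = 0.405). MYC was at 378 to 424 CPM without and 277 to 290 CPM with TAK-981, a fall of 0.52 ± 0.0333 with no overlap between the groups, and the MYC antagonist genes MXD4 (0.83) and MXD1 (0.41) rose. In the MYC network list as a whole 5 of 12 genes rose (41.7%) and 4 fell (33.3%), shares near those of all genes.

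**Figure D1:**
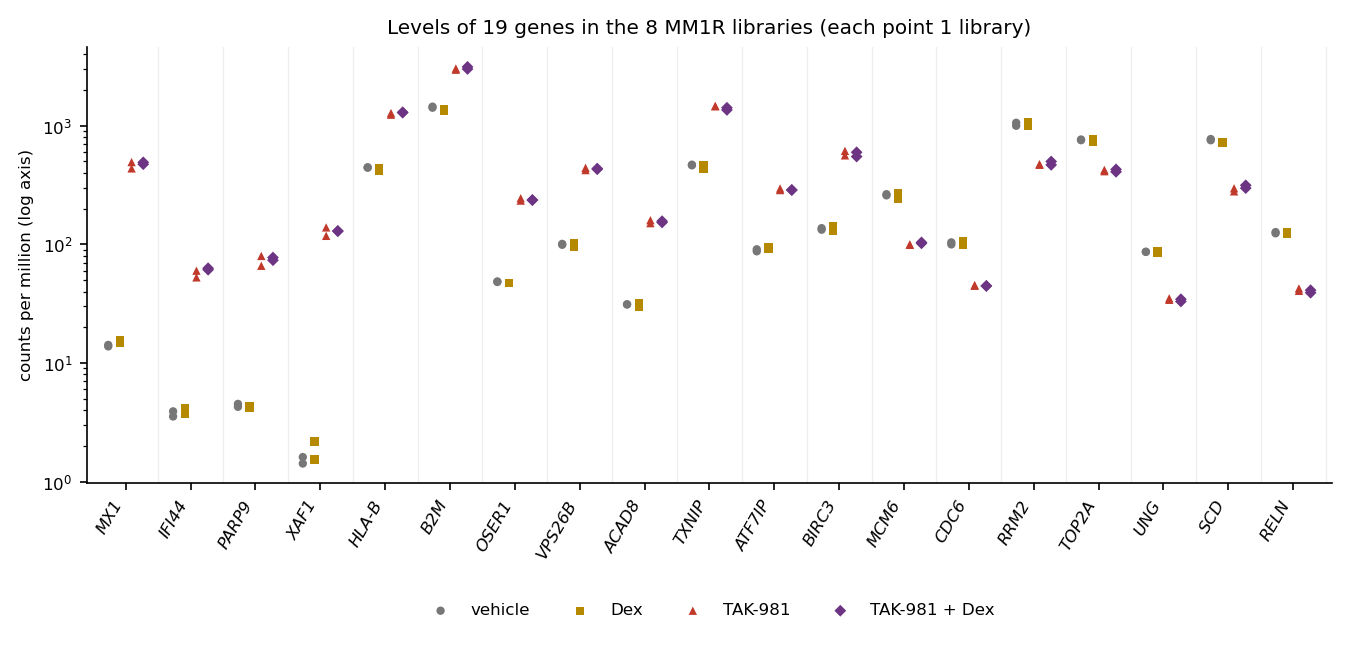
CPM on a log axis for 19 genes named in the text (x axis) in each of the 8 MM1R libraries, 1 point per library, with grey circles for vehicle, ochre squares for Dex, red triangles for TAK-981 and purple diamonds for the combination. In all 19 genes both groups with TAK-981 lie on 1 side of both groups without it, and vehicle and Dex lie close together, as MX1 shows with 13.8 to 15.6 CPM against 437 to 494 CPM.

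Biosynthetic programmes were broadly but modestly lower. All 45 ribosome biogenesis genes fell, against 36.3% of all genes, with a median of −0.40, among them the nucleolar genes NCL (−0.64), NPM1 (−0.68), FBL (−0.74) and PA2G4 (−0.81). Ribosomal protein genes fell less. Of 81 cytosolic members 57 fell (70.4%) and 3 rose (3.7%, against 34.6% of all genes), with a median of −0.16. Of 79 mitochondrial members 61 fell (77.2%) and 4 rose (5.06%), with a median of −0.26. Subunits of oxidative phosphorylation were lower in 59 of 75 (78.7%) with 2 higher (2.67%). Sterol and fatty acid synthesis had 26 of 32 genes lower (81.2%) and 2 higher (6.25%), with a median of −0.52. SCD, which desaturates fatty acids, was at 773 and 755 CPM with vehicle, 734 and 716 with Dex, 297 and 280 with TAK-981, and 315 and 298 with the combination, a log2 fold change of −1.32 with no overlap between the groups. INSIG1, which retains the sterol sensor in the endoplasmic reticulum, fell by 1.27, and FDPS fell by 0.94, while MVD (0.27) and ACSS2 (0.17) rose. Glycolysis and hypoxia genes fell in 28 of 36 (77.8%) with 4 higher (11.1%). ENO2 fell by 0.94, PKM by 0.74, HK2 by 0.78 and GAPDH by 0.72, and BNIP3L (0.50) and SLC16A3 (0.50) rose. GAPDH is often used as a reference transcript, and scaling to it would raise each log2 fold change given here by 0.72.

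Amino acid and protein folding genes showed the same direction. Of 37 genes of the ATF4 amino acid response 28 fell (75.7%, against 36.3% of all genes) and 5 rose (13.5%, against 34.6%; 28 and 3 without Dex replicate 1). PHGDH, the entry enzyme of serine synthesis, fell by 1.46, and the amino acid transporter genes SLC7A1 and SLC1A5 by 1.18 and 0.94, whereas the stress genes DDIT3 (0.48) and DDIT4 (0.42) rose. In the unfolded protein response 27 of 35 genes fell (77.1%) and 5 rose (14.3%). The chaperone genes PDIA3 (−0.77), MANF (−0.75) and HYOU1 (−0.65) fell. EDEM1 (0.39) and HERPUD1 (0.26), which act in degradation from the endoplasmic reticulum, rose. Heat shock genes fell in 16 of 21 (76.2%), with HSPA4L (−1.29), HSP90AA1 (−0.91) and HSPD1 (−0.71) among them, and 2 were higher (9.52%). The heat shock element (GAA, any 2 bases, TTC, any 2 bases, GAA) was in 5 of the 20 heat shock promoters matched, against 0.487% of all and 0.37% of those matched to a tested gene. The sterol element (ATCAC followed by CCCAC) was in 1 of the 26 sterol promoters (3.85%). It was in 13 of all promoters (0.0476%) and 5 of those matched to a tested gene (0.0463%). A share that rests on 1 promoter is not read here. The E-box CACGTG was in 451 of the 4108 promoters of genes called lower and in 1101 of the 10805 matched to a tested gene (10.2%), and the cAMP element TGACGTCA was in 138 (3.36%) and 348 (3.22%), so genes called lower lay close to the genes tested in both. Over all 27305 promoters the shares were 7.43% and 1.98%. The heat shock and sterol lists were written from general knowledge, so the shares of their elements describe the lists and are not independent of them. Proteasome genes, a list made by name that also holds antisense transcripts, fell in 33 of 42 (78.6%). Of its 6 members that rose, PSMB8 (0.51) and PSMB9 (0.75) encode subunits of the immunoproteasome, which interferon induces, and the others were antisense RNAs such as PSMB8-AS1 (1.06). How the counting treated strand is not given in the sources used here, so an antisense RNA and its partner cannot be told apart where they overlap.

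Survival and death genes moved on both sides of the balance. In the apoptosis list 18 of 34 genes rose (52.9%, against 34.6% of all genes) and 7 fell (20.6%, against 36.3%), with a median of 0.26. BIRC3, an inhibitor of apoptosis and a target of NF-κB, was at 131 to 142 CPM without and 550 to 614 CPM with TAK-981, 4.28-fold higher. The anti-apoptotic genes MCL1 (0.81) and CFLAR (0.98) rose, and so did the pro-apoptotic BBC3 (PUMA, 1.19) and TNFSF10 (TRAIL, 1.82), while the caspase genes CASP2 and CASP6 fell by 0.69 and 0.66 and FAS by 0.56. Of 20 NF-κB genes 17 rose (85.0%) and 1 fell (5.0%), with a median of 0.47 (17, 2 and 0.50 without Dex replicate 1): ICAM1 rose by 0.80, NFKBIA by 0.73 and NFKB2 by 0.53, and the chemokine gene CCL3 fell by 0.35. Of 25 p53 targets 14 rose (56.0%) and 5 fell, and ZMAT3 (1.97), PLK2 (1.79) and BTG2 (0.56) rose while CDKN1A rose by 0.21 only. Autophagy and lysosome genes rose in 29 of 45 (64.4%) and fell in 6 (13.3%), by small amounts (median 0.20), with NBR1 (0.57), LAMP2 (0.46), TFE3 (0.39) and ULK1 (0.22) among the higher and NPC1 (−0.43) among the lower. In the immediate early and MAPK feedback list 16 of 32 genes rose and 8 fell. ZFP36, which destabilises AU-rich mRNAs, was at 127 to 138 CPM without and 331 to 338 CPM with TAK-981, IER5 rose by 0.98 and DUSP1 by 0.74, whereas DUSP4 fell by 1.18 and FOSL2 by 1.48.

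Plasma cell identity genes as a list were not set apart from the background: of 21 genes 8 rose (38.1%, against 34.6% of all genes) and 9 fell (42.9%, against 36.3%), with a median of −0.01. IRF4, on which myeloma cells depend, was at 1420 to 1440 CPM without and 896 to 930 CPM with TAK-981, and the immunoglobulin joining chain gene JCHAIN fell by 0.35. IKZF3 (Aiolos) rose by 0.65, the oncogene MAF, which is translocated in this line, by 0.71, and CD38, the target of therapeutic antibodies, was at 19.3 to 19.9 CPM without and 42.2 to 44.2 CPM with TAK-981. FCRL5, another surface antigen, rose by 1.18 and the syndecan gene SDC1 by 0.11. TNFRSF17 (BCMA) fell by 0.21 and SLAMF7 by 0.15.

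Genes known to be induced by glucocorticoids were mostly higher with TAK-981, in a line whose receptor gene was not called in the main model. NR3C1, the glucocorticoid receptor gene, was at 19.6 and 17.6 CPM with vehicle, 19.3 and 16.4 with Dex, 20.1 and 20.2 with TAK-981, and 19 and 20 with the combination. The groups overlapped, and the log2 fold change of 0.12 ± 0.0612 did not pass (adjusted p = 0.0814). Over the alternative settings it lay between 0.08 and 0.17, and whether it passed depended on the setting. Of 16 genes of the glucocorticoid-induced list 14 rose (87.5%, against 34.6% of all genes) and 1 fell (6.25%, against 36.3%), with a median of 0.54. TXNIP, an inhibitor of thioredoxin, was at 432 to 470 CPM without and 1360 to 1470 CPM with TAK-981, TSC22D3 (GILZ) rose by 0.87 and DUSP1 by 0.74, and RASD1, at under 1 CPM without the drug, rose by 1.29 ± 0.221. FKBP5, a receptor co-chaperone and a standard readout of receptor activity, went the other way and fell by 0.71, from 91.4 to 97.1 CPM to 54.1 to 60.3 CPM. Several members of this list also belong to other lists (NFKBIA, DUSP1, DDIT4), and what they share in these libraries was not tested.

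The largest single increases were in genes that were nearly silent without TAK-981. Of the 4772 genes called higher, 323 had at most 10 counts in each of the 4 libraries without it. Genes this low without TAK-981 mostly pass the count filter through the libraries with it. Their calls as higher therefore follow in part from the filter, and the number is a description only. IFI44L, an interferon-stimulated gene, had 0, 0, 2 and 2 counts in vehicle and Dex libraries and 1026 to 1216 counts in the 4 libraries with TAK-981. MEIS3, a homeobox gene, had 0 or 1 count in each library without and 440 to 556 with the drug, JPH2, a junctophilin of muscle, at most 3 without and 477 to 579 with, and SCUBE1 at most 2 without and 267 to 312 with. KNDC1 had 0 counts in all 4 libraries without TAK-981 and 22 to 31 with it, at least 40.6-fold higher when 3 counts are set as the floor of the group without the drug. GLB1L3 had 2 to 5 counts without and 727 to 856 with TAK-981, and POU3F1, a neural homeobox gene, 6 to 11 without and 613 to 831 with. Fitted folds of genes with so few counts depend on the settings and are not read here.

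Silencing factors and zinc finger genes were part of the response. Of 29 genes of heterochromatin silencing 19 fell (65.5%, against 36.3% of all genes) and 8 rose (27.6%, against 34.6%), with a median of −0.33. The heterochromatin protein genes CBX5 and CBX3 fell by 0.58 and 0.59, the methyltransferase genes DNMT1 and EZH2 by 0.55 and 0.64. ATF7IP, a partner of the methyltransferase SETDB1, was at 87.4 to 94.1 CPM without and 287 to 296 CPM with TAK-981, and MORC3 (0.59), EZH1 (0.57) and FAM208A (0.39) rose. Of 440 zinc finger (ZNF) genes 285 rose (64.8%, against 34.6% of all genes) and 49 fell (11.1%, against 36.3%), with a median of 0.31. ZNF208, ZNF737 and ZNF493, which lie in a cluster on chromosome 19, rose by 2.68, 1.57 and 1.38, and ZNF367, a gene with an E2F match in its promoter, fell by 1.17. These genes are related in sequence, and shared reads could be split between them. Small nucleolar RNA genes mostly did not pass the test, with 39 of 184 higher (21.2%) and 14 lower (7.61%). Copies of the imprinted SNORD116 family such as SNORD116-2 (1.47) and SNORD116-20 (1.10) nevertheless rose. Their reads cannot be separated from the long host transcript. Among small nucleolar RNA host genes 4 of 19 rose (21.1%, against 34.6% of all genes) and 8 fell (42.1%, against 36.3%). Without Dex replicate 1 these counts were 2 and 9. The fall is near the share of all genes. SNHG1 fell by 0.57 and SNHG16 by 0.58.

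Strong increases occurred in neighbouring genes more often than in the table as a whole. Of 179 genes higher by at least 4-fold with a tested, non-overlapping neighbour within 100 kb, 64 had a neighbour that was itself called at least 2-fold higher (35.8%), against 9.19% of the 11729 such genes tested. Families that respond together, such as IFIT and OAS genes, contribute to this number. Many of the 179 genes were nearly silent without TAK-981, so that their place in this class follows in part from the count filter. The share is therefore a description only. The longest run of adjacent genes, all called at least 2-fold higher, did not consist of a family: on chromosome 11, positions 133938820 to 134248235 of hg19, the 7 tested genes from JAM3 to GLB1L2 all rose over 309.4 kb, on both strands and without overlap. They were picked for this description after their values were seen. VPS26B, a retromer subunit, was at 99.2 and 101 CPM with vehicle, 96 and 102 with Dex, 423 and 442 with TAK-981, and 430 and 436 with the combination. ACAD8, of valine breakdown, was at 29.8 to 32.1 CPM without and 151 to 160 CPM with TAK-981, NCAPD3 rose by 1.09 and THYN1 by 1.06. In the same run stands GLB1L3, one of the nearly silent genes. The genes at its ends had few counts. JAM3 had 3 to 7 without and 11 to 18 with TAK-981, and GLB1L2 had 0 to 16 without and 79 to 85 with it. The 1 gene tested within 300 kb outside the run, IGSF9B, was called higher too, with 0 counts in the 4 libraries without TAK-981 and 8 to 11 in those with it. On chromosome 20, OSER1 was at 47.1 to 48.7 CPM without and 234 to 245 CPM with TAK-981, with its divergent antisense gene OSER1-AS1 at 2.15 and JPH2 next to it, and the 4 tested genes within 300 kb of this run were also called higher, TOX2 by 0.95, FITM2 by 0.91, SERINC3 by 0.35 and TTPAL by 0.21. On chromosome 1, LYST (1.71), ERO1B (2.40) and the genes NID1 and GPR137B between them rose over 621.0 kb. Of the 5 tested genes within 300 kb of them, B3GALNT2 (0.98) and LGALS8 (0.50) rose, TBCE and HEATR1, further out, fell by 0.26 and 0.23, and EDARADD was not called. Genes called higher thus also lay outside each run, beside the genes on chromosome 1 that fell or were not called. The 2-fold minimum alone does not set the ends, because IGSF9B passed it. YIPF1 (1.99) and the protocadherin gene PCDH1 (2.09) completed the 12 genes with the smallest p among those at least 2-fold higher.

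**Figure D2:**
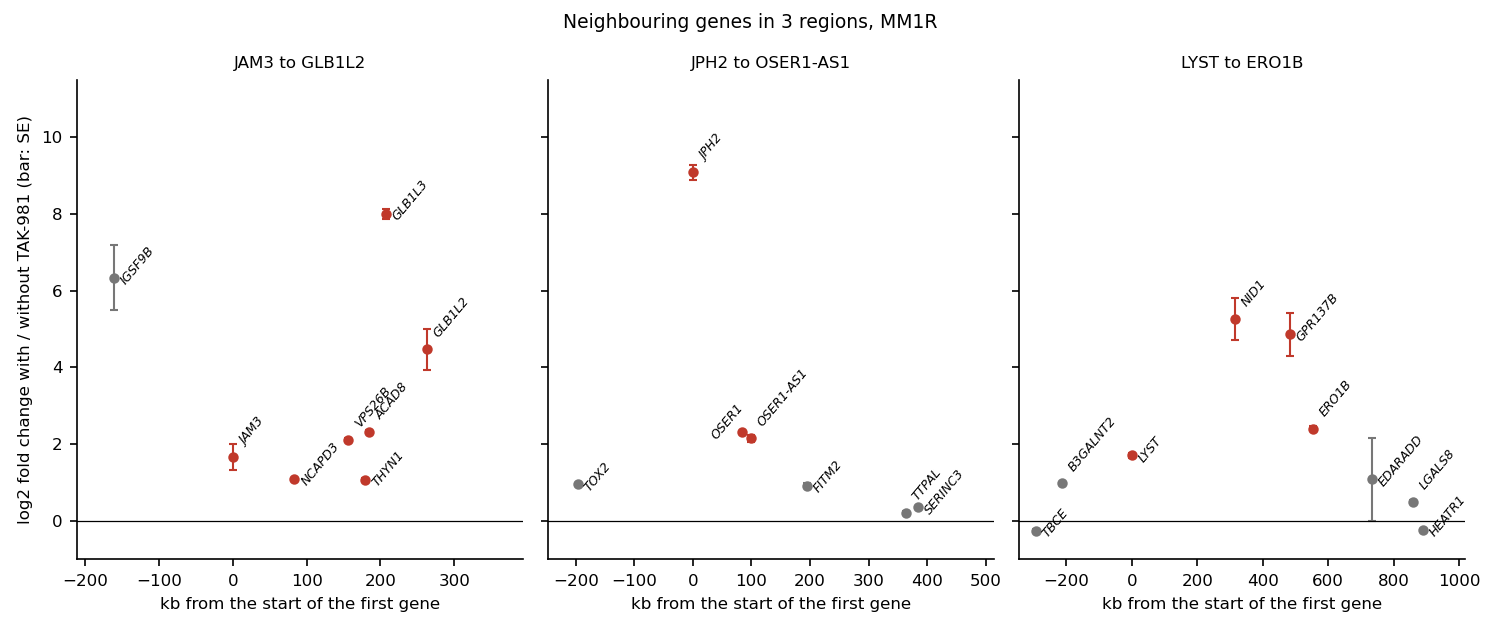
Log2 fold change with against without TAK-981 (y axis, bars are the SE) for neighbouring tested genes by the distance of their start from the first gene of the run in kb (x axis), for 3 regions. Red points are the genes of the run and grey points the tested genes within 300 kb on either side. All red points lie above 1 (2-fold). The values of JAM3, JPH2, GLB1L3, GLB1L2, IGSF9B, NID1 and GPR137B rest on few counts in the libraries without TAK-981. EDARADD differed widely between replicates, with 145 counts in Dex replicate 1 and 3 in Dex replicate 2.

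Several genes that fell by at least 2-fold with a small p are outside the lists above. RELN, which encodes a secreted matrix glycoprotein, was at 127 and 124 CPM with vehicle, 126 and 123 with Dex, 40.6 and 42.5 with TAK-981, and 39.1 and 41.1 with the combination, a fall of 1.61 ± 0.0347 (adjusted p = 9.63e-19), the smallest p among genes lower by at least 2-fold with mean log2 CPM of at least 3. ST8SIA2, a polysialyltransferase, fell 4.18-fold, CAV1 (caveolin 1) fell 2.58-fold, HMGA1, an architectural chromatin protein, fell 2.52-fold, and TRIP13, an ATPase of the spindle checkpoint, fell 2.79-fold. FAM111B, a protease gene expressed in S phase, fell 2.08-fold. No library of the 4 with TAK-981 overlapped those without in any of these genes.

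**Figure D3:**
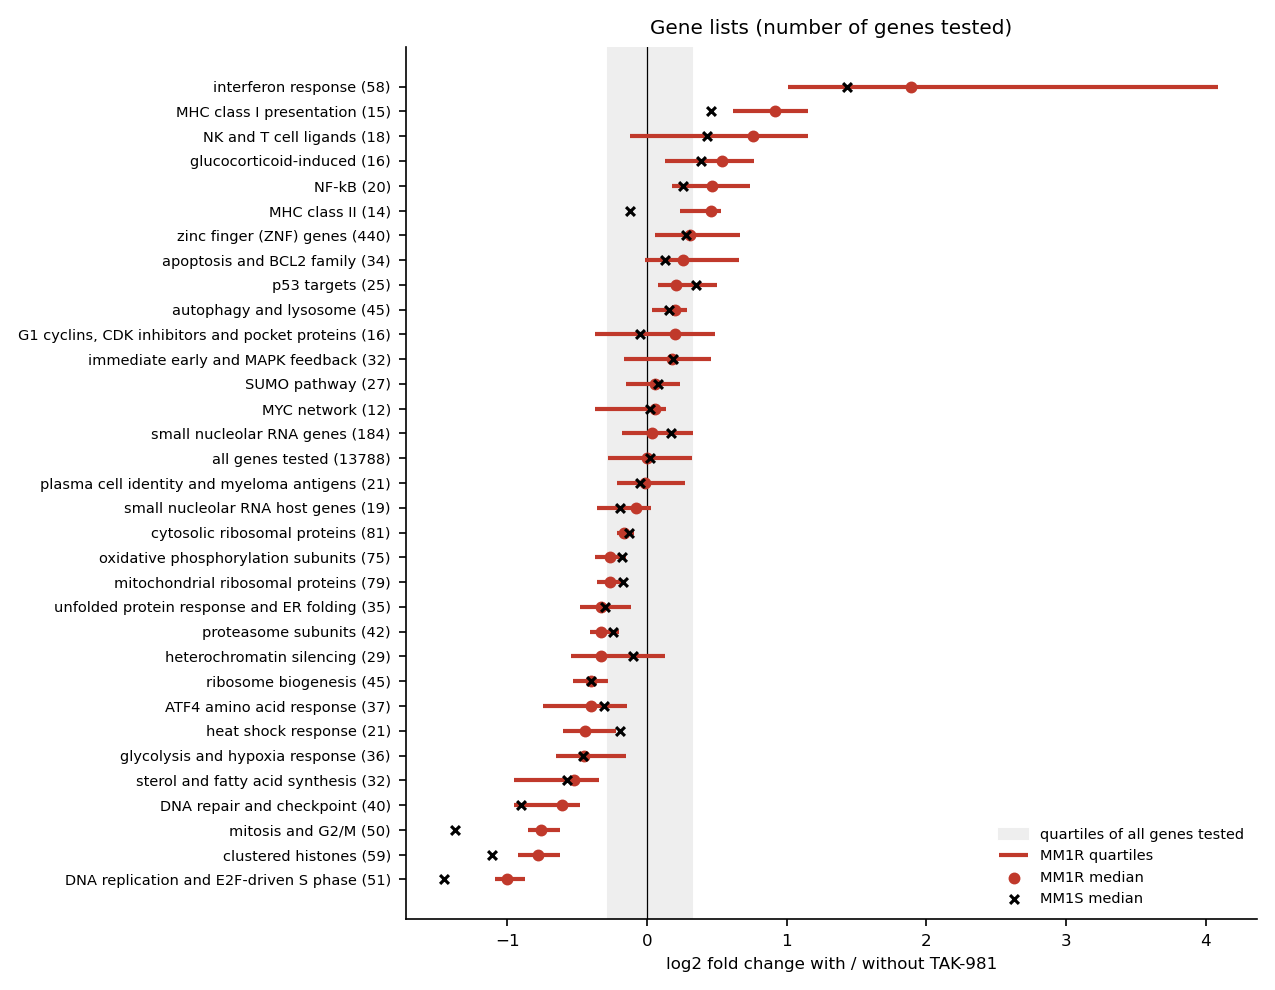
Median log2 fold change with against without TAK-981 (x axis) for each gene list (y axis, number of genes tested in brackets), as red points with red bars for the quartiles in MM1R and black crosses for the median in MM1S; the grey band spans the quartiles of all genes tested, −0.28 to 0.32. Interferon response genes stand highest (median 1.89) and replication genes lowest (−1.0), and the crosses of replication (−1.45), mitosis (−1.37) and histones (−1.11) lie further from 0 than the red points. The MM1S values are averages of the TAK-981 effects without and with Dex.

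Most genes called for TAK-981 without Dex were also called in its presence. Without Dex (TAK-981 against vehicle) 8691 genes were called (63.0%), and with Dex (combination against Dex) 8139 (59.0%; 8102 without Dex replicate 1). These comparisons have no library in common. They shared 7165 calls, 82.4% of the former and 88.0% of the latter, of which 2 had opposite signs, and across the 13788 genes, which are not independent replicates, their log2 fold changes correlated with a Pearson r of 0.897 and a Spearman rho of 0.894. The interaction of TAK-981 and Dex called 0 genes with edgeR, 5 with the replicate number as a block, 2 with DESeq2, and 985 at an unadjusted p under 0.05 (7.14%). Which Dex library enters mattered for this result: without Dex replicate 2, which leaves only Dex replicate 1 in that group, 747 genes were called, and without Dex replicate 1 there were 6. AHNAK, a giant scaffold protein gene, had the smallest interaction p among genes with mean log2 CPM of at least 3. It was at 164 and 160 CPM with vehicle, 168 and 181 with Dex, 95.1 and 101 with TAK-981, and 78.2 and 81.2 with the combination, and its fall of 0.72 without Dex and 1.13 with Dex did not differ at an adjusted p under 0.05. MX1 rose by 5.06 without and 4.98 with Dex, RRM2 fell by 1.13 and 1.10, and TXNIP rose by 1.65 and 1.64. A p that misses the threshold does not show that the effects are equal.

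**Figure D4:**
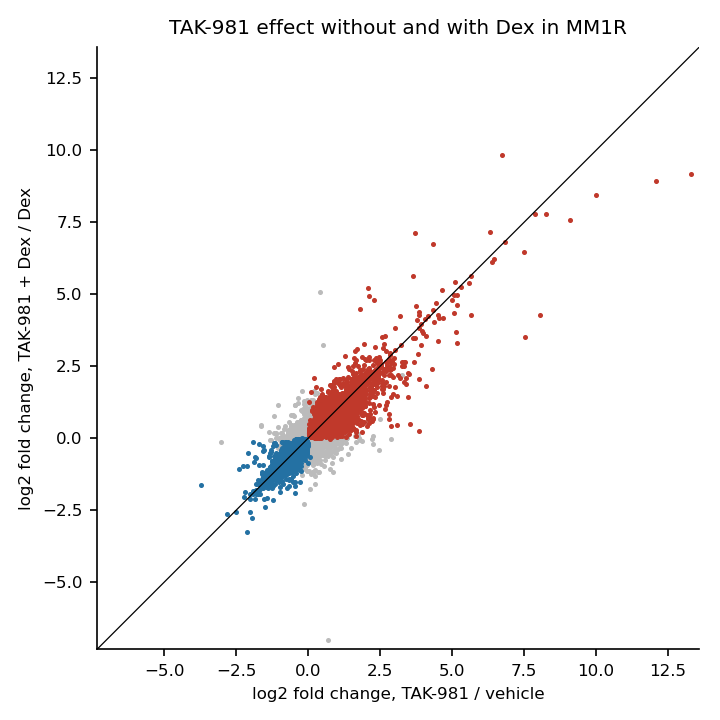
Log2 fold change of TAK-981 against vehicle (x axis) and of the combination against Dex (y axis), 1 point per gene, for 13788 genes in MM1R; red points were called higher and blue points lower in the model over all 8 libraries, and the line marks equal values. Most points follow the line (Pearson r 0.897), and the points furthest to the upper right rest on genes with few or 0 counts without TAK-981.

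The test of the difference between the cell lines called 1532 of 14215 genes (10.8%), 1109 with a higher log2 fold change in MM1R (7.8%) and 423 with a lower one (2.98%). It compared, in each line, the average of TAK-981 against vehicle and of the combination against Dex. The MM1S values below are that average. Any dependence of the TAK-981 effect on Dex in MM1S enters them and was not tested here. Without Dex replicate 1 of MM1R it called 1360, and with the replicate number as a block 2438. The cell cycle groups were among those that differed, and they fell less in MM1R. Of the 50 mitotic genes 48 were called with a higher value in MM1R and 0 with a lower one, where the median was −0.76 in MM1R and −1.37 in MM1S, and of the 51 replication genes 31 and 0, with medians of −1.0 and −1.45. RRM2 fell by 1.12 in MM1R and by 2.13 in MM1S, CLSPN by 0.87 and 1.96, DTL by 1.11 and 2.24, and FAM111B by 1.06 and 2.25. Histone genes were called in 25 of 58 with a higher value in MM1R and 1 with a lower one. Interferon genes rose more in MM1R, with 37 of 58 called higher and 0 lower and medians of 1.89 and 1.43: MX1 rose by 5.02 in MM1R and 3.75 in MM1S, XAF1 by 6.25 and 4.07, and SLFN5 by 2.38 and 1.07. Ribosome biogenesis differed in 2 of 45 genes and the SUMO pathway in 0 of 27. FKBP5 fell by 0.71 in MM1R and was at 0.09 in MM1S, a difference of −0.80 (adjusted p = 2.2e-07). With 1 resistant and 1 sensitive line, glucocorticoid resistance cannot be told apart from other differences between them.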

How the data were processed

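The authors deposited 1 table of raw gene-level read counts, which held whole-number counts for 16 libraries of Ribo-Zero total RNA; per the labels, bcl2fastq 2.18.0.12, STAR 2.6.0, HTSeq 0.6.0 and edgeR 3.28.1 were used with build hg19, and the counting mode and strand setting are not given in the sources used here. Coordinates of genes are those of that table. Counts were tested with edgeR 4.0.16 (R 4.3.3): TMM scaling, filterByExpr by group, and the robust quasi-likelihood F test with Benjamini-Hochberg adjustment at 0.05. The main model had a TAK-981 and a Dex term over the 8 MM1R libraries (5 residual degrees of freedom). Effects within Dex levels and the interaction came from a model with 1 term per group (4), and the difference between lines from all 16 libraries with 1 term per group (8). Totals were 18987739 to 24796539 counts; median SE of a log2 fold change was 0.0555. CPM used TMM-scaled totals.

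On simulated counts 88.9% of genes changed 1.5-fold and 90.9% of those changed 2-fold were called in the main model, and 9 of 13404 unchanged ones. Only 99 genes of each size were changed among the 13602 tested there, whereas 70.9% of genes were called in the data. These rates therefore do not carry over to the data. Genes are named by rule: the 12 smallest p in each direction with at least 2-fold change, mean log2 CPM of at least 3 and no overlap; genes the study names; up to 4 called genes per direction and list by p; the 6 largest increases among genes with at most 10 counts in each library without TAK-981; and the 5 smallest p of the interaction and of the line difference. Other members of lists are given to show a list's range or its known key factors and were chosen after their values were seen. The members and lists were chosen with earlier results of these data known, and no set test was run. Some genes that the rule takes in are not reported here. Promoters (GRCh38.p14, RefSeq; first listed start of a symbol) matched 10805 of the 13788 genes tested, 78.4%; the share over these is given as a description, and motif shares of gene groups only where at least 80% matched. Alternatives were DESeq2 1.42.0, other scalings, no filter, a replicate block, a fit over all 16 libraries, a fold minimum and each library left out.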

Additional observations from a re-analysis of the deposited data

Results flagged for a closer look

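The rule for a sample far from the others was not applied, because no group holds 4 libraries. The following results differed between MM1R and MM1S by the test of the difference itself (edgeR quasi-likelihood F test over all 16 libraries), and each value is the log2 fold change with TAK-981 in MM1R minus that in MM1S. Both are averages of the effects without and with Dex. The count of genes that differed was 1532. Among named genes the difference was 1.27 for MX1, 1.31 for SLFN5, 1.19 for FAM111B, 1.13 for DTL, 1.10 for CLSPN, 1.01 for RRM2, 0.92 for E2F1, 0.94 for ZFP36 and 0.22 for MYC. For MX1, SLFN5 and ZFP36 a positive value means a larger increase in MM1R, and for the others a smaller fall.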

How the results depend on the processing

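No result changed direction under any alternative. For the main effect the count of 9773 ranged from 8943 (DESeq2) to 10090 (no filter) over other tools, scalings and filters and from 9263 to 10157 with each library left out; a minimum of 2-fold left 1224 genes, 1356 without Dex, 1171 with Dex and 123 for the difference between lines. The interaction, with 0 calls, gave 2 with DESeq2, 5 with a replicate block, 38 without the filter, and 0 to 747 with 1 library left out, the highest without Dex replicate 2; the cause was not tested. The difference between lines gave 2438 with the replicate block, against 1532 without it. Whether the replicate numbers pair the libraries is not settled: deviations of same-numbered libraries correlated at −0.013 to 0.09 over all genes, and at 0.161 to 0.425 over the 6130 genes with mean log2 CPM above 5. With the block the main count was 9952. Among values of named genes and lists over all alternatives, 3742 kept direction and side of the threshold, 50 no longer passed, 8 newly passed and 120 moved by more than the spread. With 2 libraries per group, effects far below the median SE cannot be resolved.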
